A study of Mus musculus with 8 samples.

Results

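Complement and coagulation factors are plasma proteins that act in chains of proteases, and most of them are made by hepatocytes. The genes described here are 44 listed complement and coagulation genes, 22 of each kind, out of 34547 genes read from fasted mouse liver. They were chosen by name from a list of the 2 cascades. No cut on a value was used, but earlier results of these data were known. All 44 were found in the files and had enough reads to be tested. RNA was sequenced from whole livers of 8 C57BL/6J mice. Of these, 4 had been injected through the tail vein with AAV, an adeno-associated viral vector that infects hepatocytes, carrying mouse Nudt7, a peroxisomal enzyme that cleaves coenzyme A and its acyl esters, and 4 with the same kind of vector carrying GFP, a fluorescent marker protein. All 8 mice received 2.5e+11 viral particles in 150 µl of saline at 8 weeks of age, were fasted for 24 h and were 11 to 12 weeks old at sampling, 3 to 4 weeks after injection. The sources used here give neither the promoter of the vectors nor the sex of the mice or any batch. The groups are called Nudt7 livers and GFP livers below, and there is no uninjected or fed liver among them.

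In the complement cascade, C1q or mannose-binding lectin recognises a surface and switches on serine proteases that cleave C4 and C2, the resulting convertase cleaves C3, and the terminal components then assemble into a pore in the target membrane. In coagulation, a tissue factor trigger or the contact system activates a series of proteases that ends in thrombin, which cuts fibrinogen into fibrin, and plasmin later dissolves the clot. Serpins and protein C with its cofactor protein S hold these proteases in check. Fibrinogen and several complement genes are known as acute phase genes of the liver, driven there by interleukin-6 through STAT3 together with the C/EBP transcription factors.

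The 3 fibrinogen genes are shown first because they held the largest share of transcripts in the set and because their ratios varied less over the 8 livers than their levels. They lie side by side on chromosome 3 in the order Fgg, Fga and Fgb, with gaps of 11 kb and 6.5 kb, and Fgb is on the minus strand. The 250 bases before each RefSeq start (GRCm38.p6) are given 5′ to 3′ on the strand of the gene, for Fga at chr3:83025903-83026152, for Fgb at chr3:83049864-83050113 and for Fgg at chr3:83007474-83007723. Capitals mark matches to 4 motifs searched on both strands, the C/EBP motif TTGCNNAA, the STAT motif TTCNNNGAA, the HNF4 core CAAAGTC and AGAACA. The last is only a partial glucocorticoid receptor site, not the full element.
Fga: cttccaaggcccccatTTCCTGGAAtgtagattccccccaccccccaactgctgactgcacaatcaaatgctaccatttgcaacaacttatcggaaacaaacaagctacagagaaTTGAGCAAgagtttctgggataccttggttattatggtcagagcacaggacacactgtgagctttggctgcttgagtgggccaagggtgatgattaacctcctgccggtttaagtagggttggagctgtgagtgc
Fgb: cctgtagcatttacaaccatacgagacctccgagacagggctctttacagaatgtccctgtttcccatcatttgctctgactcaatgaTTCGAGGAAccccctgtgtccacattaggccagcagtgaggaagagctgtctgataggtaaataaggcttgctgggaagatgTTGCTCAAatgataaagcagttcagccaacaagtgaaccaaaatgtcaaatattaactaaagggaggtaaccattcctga
Fgg: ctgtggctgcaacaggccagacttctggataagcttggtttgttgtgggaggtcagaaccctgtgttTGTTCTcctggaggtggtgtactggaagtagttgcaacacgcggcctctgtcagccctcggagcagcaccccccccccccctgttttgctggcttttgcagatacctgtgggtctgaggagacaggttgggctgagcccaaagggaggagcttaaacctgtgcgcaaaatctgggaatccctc
The Fga and Fgb windows each hold a STAT and a C/EBP match, in this order from the far end. Counted from the start, the STAT match begins at −234 in Fga and at −162 in Fgb, and the C/EBP match at −135 and −80. In the Fgg window the one match is to the partial glucocorticoid receptor site, beginning at −183. Windows of 300 bases (250 before to 50 after the start) were given for 34 of the 44 genes, 36 windows in all. The C/EBP motif was in 36.1% of these 36 windows and in 10.8% of all 32851 windows in the RefSeq table, and the STAT motif in 19.4% and 8.30%. The partial glucocorticoid receptor site was in 41.7% of the 36 windows and 19.0% of all, and the HNF4 core in 0 of the 36 and 4.44% of all. The HNF4 core is an exact run of letters, and 0 matches in 36 windows do not show that HNF4 sites are absent. No motifs overlapped in the windows shown, and a match is a run of letters, not a shown binding site.

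Nudt7 itself reached 1301, 1599, 3569 and 1555 CPM (read counts scaled to a common library size of 1e+06) in Nudt7 livers 1 to 4, against 60.7, 75.9, 79.9 and 72.9 CPM in GFP livers 1 to 4. Depth was 11187806 to 23640734 estimated reads per library, and the least read member in any library, F11, still had 195 reads. Hepatocyte markers (11 tested) summed to between 81342 and 115011 CPM in Nudt7 livers and between 94537 and 117547 CPM in GFP livers, with none of them at 0. Neutrophil and monocyte markers summed to at most 8.12 CPM in Nudt7 livers, against 7.67 CPM in GFP livers, and lymphocyte markers to at most 8.59 and 8.61 CPM. Platelet markers summed to between 21.6 and 29.8 CPM in Nudt7 livers and between 40.1 and 52.6 CPM in GFP livers, and cholangiocyte markers to between 33.2 and 43.3 CPM and between 18.2 and 30.5 CPM. Of the 10 platelet markers only 3 had enough reads to be tested, 1 with a positive and 2 with negative fold changes. Of the 8 cholangiocyte markers 5 were tested, 4 positive and 1 negative. The edgeR test called 0 of either list. Nudt7 replicate 3 stood apart from the other libraries: it had the highest Nudt7 level, a summed level of red blood cell markers of 1838 CPM where the other 7 had 318 to 659 CPM, and more reads from short transcripts. This library moved many of the fold changes below, and those it moved most are also given without it. In whole liver, fewer cells of a type and less RNA per cell cannot be told apart. The labels do not say more of the 4 samples of a group than that they are separate mice, so p-values measure the spread between these samples.

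The 44 genes were among the abundant transcripts of fasted liver. Their median level was 134.7 TPM (a level scaled to transcript length, with a total of 1e+06 per library), where the median tested gene stood at 9.25 TPM. Of 22817 genes listed above 0, ranked by mean TPM over the 8 livers, 2 of the 44 were in the first 100, 16 in the first 500 and 30 in the first 1000, with a median rank of 734. Together they took 1.26% ± 0.110 of all TPM in the Nudt7 livers and 1.44% ± 0.0883 in the GFP livers (SD, n = 4 each).

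The top of the order was held by the fibrinogen chains, antithrombin and C3. Fga, the fibrinogen alpha chain gene, stood at 1287 ± 253 TPM in Nudt7 livers, against 1792 ± 117 TPM in GFP livers and had rank 83. Serpinc1, which encodes antithrombin, the main plasma inhibitor of thrombin, stood at 1348 ± 59.3 and 1417 ± 111 TPM (rank 92). Of Serpinc1 TPM, a transcript of 6 exons and 1044 bases held 53.6% in Nudt7 livers and 51.7% in GFP livers. A transcript of 742 bases, annotated for nonsense-mediated decay and not as protein coding, held 37.4% and 39.0%. The transcript of 8 exons and 4970 bases held 6.45% in each group, so the level of Serpinc1 rests mostly on short transcripts. Fgg, the gamma chain gene, followed at 1033 ± 133 and 1361 ± 80.2 TPM (rank 102), C3, the central complement protein gene, at 1050 ± 363 and 1278 ± 92.1 TPM (rank 105), and Fgb, the beta chain gene, at 749 ± 100 and 983 ± 53.2 TPM (rank 122; SD, n = 4 each, Nudt7 livers first). In Nudt7 livers, Fga and Serpinc1, and likewise Fgg and C3, differed by less than the spread between livers. Kng1 (a kininogen, rank 147), F2 (prothrombin, rank 151) and Plg (plasminogen, rank 153) came next, with means of 677, 619 and 584 TPM in the Nudt7 livers and 715, 689 and 716 TPM in the GFP livers.

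**Figure D1:**
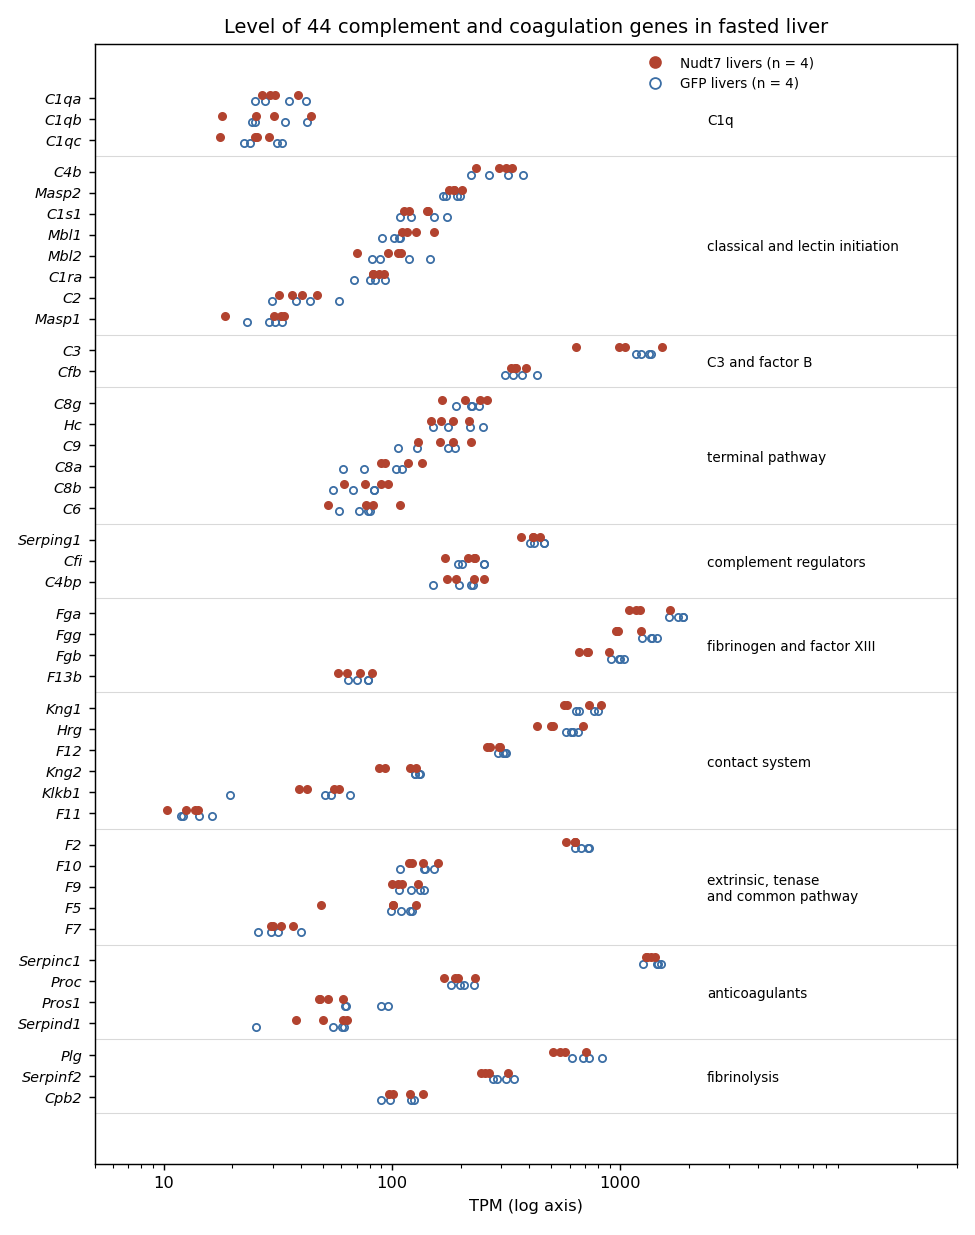
Levels of the 44 genes in TPM (log axis), grouped by role and ordered by mean level within a role. Each filled point is a Nudt7 liver and each open point a GFP liver (n = 4 each), and the levels span from F11 at a mean of 13.2 TPM to Fga at 1539 TPM.

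The low end of the order held F11, Masp1, F7 and the C1q chains. F11, the factor XI gene, was lowest at 12.7 ± 1.73 TPM in Nudt7 livers, against 13.7 ± 2.09 TPM in GFP livers, with rank 5566. Above it came C1qc, Masp1, C1qb, C1qa and F7 (factor VII, the partner of tissue factor), whose means over the 8 livers lay between 26.0 and 32.1 TPM and whose ranges over livers overlapped each other. Within the vitamin K dependent group, levels spanned from F7 at 32.1 TPM to F2 at 654 TPM, a mean over the 8 livers. Pros1 (protein S) stood at 52.4 ± 6.01 TPM in the Nudt7 livers and 77.7 ± 17.6 TPM in the GFP livers, and Proc (protein C) at 196 ± 25.3 and 204 ± 20.0 TPM. In the terminal pathway the means over the 8 livers spanned only from C6 at 76.2 TPM to C8g at 219 TPM.

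Set against GFP livers, none of the 44 genes passed the test in Nudt7 livers. Over all genes the edgeR quasi-likelihood test called 16 of 13678 at an adjusted p under 0.05, or 0.117% (0.0439% higher and 0.0731% lower), and it called 0 of the 44. At an unadjusted p under 0.05 it listed 3 of the 44 (6.82%), Mbl1 and C8a with higher and Pros1 with lower values in Nudt7 livers, where 8.28% of all tested genes reached that level. DESeq2 and limma-voom, without or with sample weights, called 0 of the 44 as well, where they called 0.676%, 0.0585% and 0.753% of all genes. DESeq2 and limma-voom each listed 3 of them at an unadjusted p under 0.05, where 5.33% and 8.17% of all genes reached it, and limma-voom with sample weights listed 7 (15.9%; Pros1, Mbl1, Fgb, Fga, Kng2, Fgg and C8a), where 11.7% of all genes reached it. The livers of the groups did not overlap for 1 of the 44, Mbl1, where 5.75% of all tested genes had groups that did not overlap. For each of the 44 genes the 95% interval of the fold change lay inside 2-fold either way, as it did for 84.4% of all tested genes. For 27 of the 44 (61.4%) it lay inside 1.5-fold either way, against 49.1% of all tested genes. The smallest adjusted p among the 44 was 0.471 in edgeR, for Mbl1, and 0.232 in any of 19 alternatives, for Pros1 in limma-voom with sample weights.

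On the side of direction, 29 of the 44 fold changes were positive (65.9%, against 49.8% of all tested genes). Of the 5554 tested genes at or above the level of the lowest member, 3160 were positive and 2394 negative, so abundant genes leaned the same way. The median log2 fold change of the 44 was 0.08, beside −0.00 over all tested genes and 0.04 over those 5554 genes. Complement genes had a median of 0.13 with 17 of 22 positive, and coagulation genes one of 0.02 with 12 of 22 positive. This lean rested on Nudt7 replicate 3: without it 20 fold changes were positive and 24 negative, and the median of the 44 was −0.03, with 13 of 22 complement genes positive at a median of 0.03 and 7 of 22 coagulation genes at one of −0.05. With sample weights in limma-voom 16 were positive, with a median of −0.06. Measured on log2(TPM + 1) 13 were positive with a median of −0.09, where the median of all genes was also shifted, to −0.10.

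**Figure D2:**
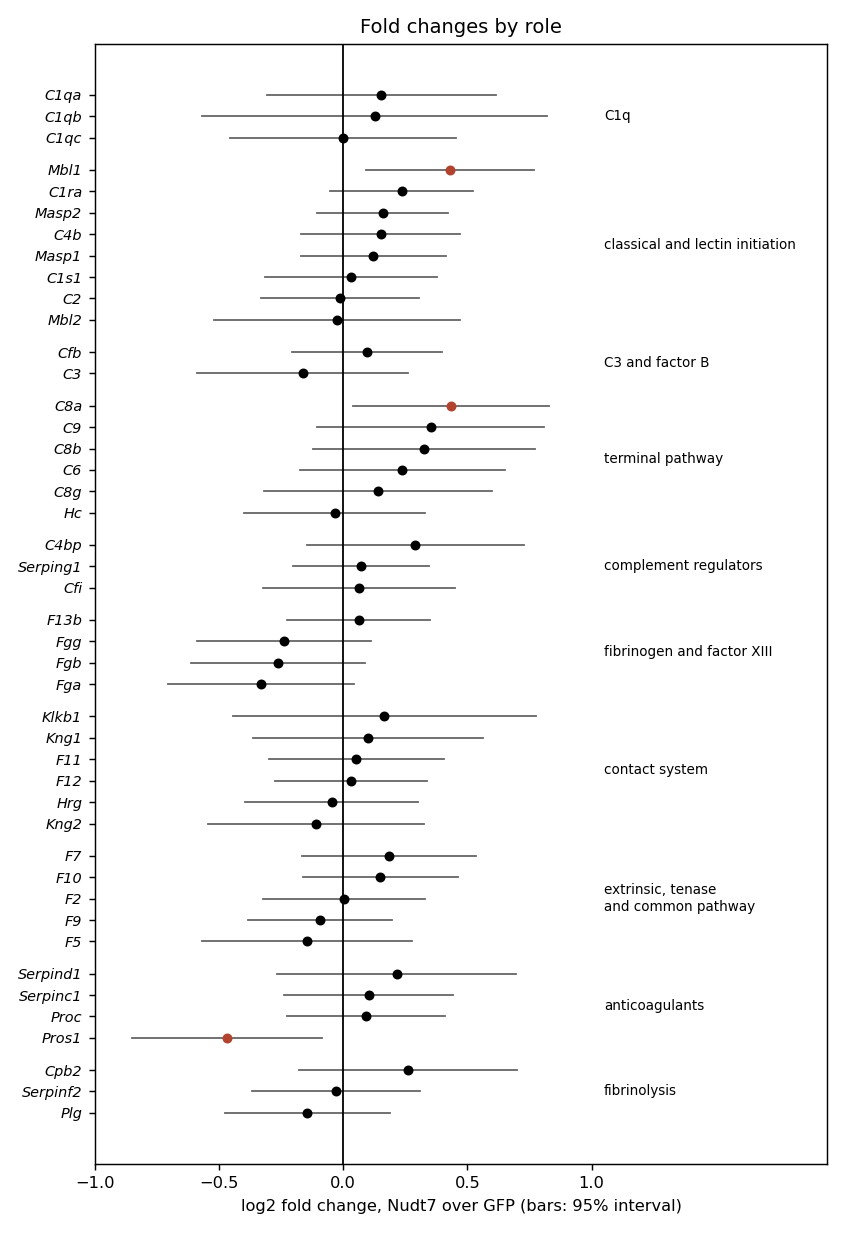
Log2 fold change of each gene (Nudt7 livers over GFP livers, edgeR) with its 95% interval, by role. Coloured points mark Mbl1, C8a and Pros1, the 3 genes at an unadjusted p under 0.05; all 44 intervals lie within 1 log2 unit of 0.

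The C1q chains are made in liver mainly by Kupffer cells, the resident macrophages, and not by hepatocytes. C1qa had 22.0, 20.8, 37.8 and 20.9 CPM in Nudt7 livers 1 to 4 and 19.7, 28.8, 23.3 and 19.5 CPM in GFP livers 1 to 4. C1qb had 22.6, 18.9, 45.2 and 14.3 CPM in Nudt7 livers, against 17.9, 30.7, 23.6 and 20.3 CPM in GFP livers, and C1qc had 20.2, 20.0, 31.6 and 14.9 CPM against 17.9, 25.6, 22.7 and 20.5 CPM. In CPM all 3 chains were highest in Nudt7 replicate 3 and second in GFP replicate 2, and the groups overlapped. In TPM, C1qa and C1qc were highest in GFP replicate 2, at 42.0 and 33.1 TPM, against 38.9 and 29.0 TPM in Nudt7 replicate 3. Their log2 fold changes were 0.15 (SE 0.21), 0.13 (SE 0.31) and −0.00 (SE 0.21) for C1qa, C1qb and C1qc, and −0.09, −0.30 and −0.23 without Nudt7 replicate 3. The summed level of 16 Kupffer cell and macrophage markers was 465, 417, 555 and 327 CPM in Nudt7 livers 1 to 4 and 411, 507, 453 and 377 CPM in GFP livers 1 to 4. It too was highest in Nudt7 replicate 3, second in GFP replicate 2 and lowest in Nudt7 replicate 4, and none of the 16 was at 0. Its part in the C1q values was not tested.

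Among the genes of classical and lectin initiation, Mbl1 was the one whose groups stood apart. Mbl1 (chromosome 14, 41151458 to 41159601, plus strand, GRCm38) encodes mannose-binding lectin A, which binds sugar patterns on microbes. It had 111, 99.1, 160.5 and 107 CPM in Nudt7 livers 1 to 4, against 87.2, 90.8, 91.0 and 85.3 CPM in GFP livers 1 to 4. Each Nudt7 liver lay above each GFP liver, and Nudt7 replicate 3 was well above the rest. The log2 fold change of Mbl1 was 0.43 (SE 0.15, 95% interval 0.09 to 0.77, edgeR adjusted p = 0.471), and 0.27 (SE 0.09, edgeR adjusted p = 0.377) without that library. On the TPM scale Mbl1 had 128, 117, 152 and 110.4 TPM in the Nudt7 livers and 102, 108, 107 and 90.4 TPM in the GFP livers, and the groups again did not overlap. These values sum both transcripts. The protein-coding one had 77.8 ± 9.62 TPM in Nudt7 livers, against 68.2 ± 4.47 TPM in GFP livers (SD, n = 4 each). The other, annotated for nonsense-mediated decay, held 32.5%, 38.1%, 55.8% and 22.6% of Mbl1 TPM in Nudt7 livers 1 to 4. In GFP livers 1 to 4 it held 33.2%, 36.8%, 31.4% and 30.7%.

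Mbl2, the gene of mannose-binding lectin C, did not share this pattern. It had 64.0, 47.2, 99.5 and 72.6 CPM in Nudt7 livers, against 53.9, 77.6, 93.7 and 63.2 CPM in GFP livers, with a log2 fold change of −0.02 (SE 0.23, edgeR adjusted p = 0.983), and −0.22 (SE 0.20) without Nudt7 replicate 3. The ratio of Mbl1 to Mbl2 in TPM was 1.36 ± 0.256 in the Nudt7 livers and 0.979 ± 0.219 in the GFP livers (SD, n = 4 each), and the groups overlapped.

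The proteases of these pathways had small fold changes. C1ra, the C1r protease gene, had 205, 185, 255 and 209 CPM in Nudt7 livers, against 176, 185, 198 and 166 CPM in GFP livers, with a log2 fold change of 0.24 (SE 0.13, edgeR adjusted p = 0.664). The lowest Nudt7 liver and the GFP livers overlapped. C1s1, the C1s protease gene next to it on chromosome 6, had 236, 197, 289.6 and 261 CPM in Nudt7 livers, against 214, 253, 289 and 206 CPM in GFP livers (0.03, SE 0.16). C4b, the gene of component C4, had 1140.2, 1185, 1127 and 1114 CPM in Nudt7 livers, against 952, 1123, 1207 and 830.3 CPM in GFP livers (0.15, SE 0.15). The Nudt7 livers lay close together for C4b, inside the range of the GFP livers. Masp1 and Masp2, the proteases bound to mannose-binding lectin, were at 0.12 (SE 0.13) and 0.16 (SE 0.12), and C2 at −0.01 (SE 0.15). Of the 8 initiation genes 6 were positive, with a median of 0.14.

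Some of these genes share sequence with a copy, so their reads are uncertain. Of the 31-base words of C1ra transcripts 59.0% also occurred in other genes, nearly all of them in C1rb, and of those of C1s1 33.5% occurred in C1s2. C1rb itself was listed at 0.390, 0, 0.165 and 0.130 CPM in Nudt7 livers and at 0.138, 0.146, 0.167 and 0 CPM in GFP livers, so the sum of C1ra and C1rb gave the same log2 fold change as C1ra, 0.24 (SE 0.13, edgeR adjusted p = 0.664). The sum of C1s1 and C1s2 gave 0.05 (SE 0.16, edgeR adjusted p = 0.944). C4b shared 48.3% of its words with C4a, which had no transcript among those quantified, so the values of C4b may hold reads of C4a. Masp2 overlaps Tardbp on the opposite strand, which had 106 CPM beside 200 CPM of Masp2, and the sources used here do not say whether the authors' counting used strand. Cfb and C2 are neighbours with a gap of 0.1 kb, and 75.5% of the words of Cfb and 40.8% of those of C2 occurred also in the joined gene model Gm20547, which was listed at 0.334 CPM.

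Masp2 is also a gene with 2 products, the protease MASP-2 and a short protein without the protease domain, MAp19 (also called sMAP). The coding ends show where they part, with 24 shared bases in lower case and the bases of each transcript alone in capitals, GENCODE M21 transcripts, to the stop codon for the short one and for the first 36 bases for the long one.
ENSMUST00000105701.8: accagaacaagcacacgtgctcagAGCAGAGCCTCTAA
ENSMUST00000052060.6: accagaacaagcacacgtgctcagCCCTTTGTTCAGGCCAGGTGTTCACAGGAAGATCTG
The short transcript, of 5 exons and 738 bases, held 56.8%, 55.3%, 66.5% and 57.4% of Masp2 TPM in Nudt7 livers 1 to 4 and 57.6%, 59.5%, 54.8% and 58.4% in GFP livers 1 to 4. The shares overlapped, with Nudt7 replicate 3 highest. The long transcript, of 11 exons and 3058 bases, held 34.1% ± 3.78 in the Nudt7 livers and 35.8% ± 0.769 in the GFP livers (SD, n = 4 each). In estimated reads, which are not scaled to length, the short transcript held 24.4% in Nudt7 livers, against 22.9% in GFP livers.

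C3 and Cfb stand at the centre of the cascade, where factor B joins C3b to form the amplifying convertase. C3 (chromosome 17, 57203970 to 57228136, minus strand) had 4162, 4443, 3821 and 6817 CPM in Nudt7 livers 1 to 4 and 5613, 4797, 5467 and 5670 CPM in GFP livers 1 to 4. In Nudt7 livers 3 values lay below every GFP liver and the fourth, replicate 4, lay above every GFP liver. For C3 the log2 fold change was −0.16 (SE 0.19, 95% interval −0.59 to 0.26, edgeR adjusted p = 0.819), and −0.38 (SE 0.16, edgeR adjusted p = 0.513) without Nudt7 replicate 4. Cfb had 627, 587, 750 and 641 CPM in the Nudt7 livers and 589, 590.5, 713 and 544 CPM in the GFP livers, with a log2 fold change of 0.10 (SE 0.14, edgeR adjusted p = 0.853).

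In the terminal pathway, whose proteins build the membrane pore, 5 of 6 fold changes were positive, with a median of 0.28, but none passed the test. Without Nudt7 replicate 3 this median was 0.13, the same as that of the initiation genes without that library. C8a (chromosome 4, 104815679 to 104876398, minus strand), the gene of the C8 alpha chain, had 341, 299, 308 and 242 CPM in Nudt7 livers 1 to 4 and 184, 260, 270 and 166 CPM in GFP livers 1 to 4. In Nudt7 livers 3 values lay above every GFP liver, and replicate 4 was among the GFP values. The log2 fold change was 0.44 (SE 0.18, 95% interval 0.04 to 0.83, edgeR adjusted p = 0.566), and 0.43 (SE 0.18) without Nudt7 replicate 3. C8a kept its direction in each of the 19 alternatives, with log2 fold changes from 0.33 to 0.56.

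C9, which polymerises to form the pore wall, had 305, 235, 344 and 193 CPM in Nudt7 livers, against 180, 246, 258 and 160 CPM in GFP livers (log2 fold change 0.35, SE 0.21, edgeR adjusted p = 0.671). C8b, the C8 beta chain gene 11.1 kb from C8a, had 144, 124, 212 and 106 CPM in the Nudt7 livers and 108, 132, 131 and 96.5 CPM in the GFP livers (0.33, SE 0.20, edgeR adjusted p = 0.685). Both genes overlapped between groups, and within Nudt7 livers both were highest in replicate 3 and lowest in replicate 4. Without Nudt7 replicate 3 the log2 fold change was 0.22 (SE 0.20) for C9 and 0.10 (SE 0.14) for C8b, and without Nudt7 replicate 4 it was 0.48 (SE 0.20, edgeR adjusted p = 0.513) and 0.45 (SE 0.20, edgeR adjusted p = 0.529). C6 was at 0.24 (SE 0.19), and at 0.41 (SE 0.14, edgeR adjusted p = 0.457) without Nudt7 replicate 4. C8g, the gene of the C8 gamma chain, was at 0.14 (SE 0.21), and at −0.12 (SE 0.12) without Nudt7 replicate 3, and Hc, which encodes component C5, at −0.03 (SE 0.17). GFP replicate 4 was the lowest of the 8 libraries for C8a, C8b, C9 and Hc, and for 16 of the 44 genes in all.

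The C8 chains did not keep one ratio. C8g to C8b in TPM was 2.71, 2.75, 2.70 and 2.69 in Nudt7 livers 1 to 4 and 3.31, 2.66, 2.88 and 3.45 in GFP livers 1 to 4, so that the Nudt7 livers were within a narrow range inside that of the GFP livers. C8a to C8b was 1.52, 1.55, 0.930 and 1.52 in Nudt7 livers, against 1.12, 1.25, 1.33 and 1.11 in GFP livers, with Nudt7 replicate 3 lowest and the other 3 Nudt7 livers above every GFP liver. C8g shares its locus with Fbxw5 on the opposite strand, which had 40.9 CPM beside 136 CPM of C8g. Of C8a, a transcript of 10 exons held 11.9% ± 5.56 of TPM in the Nudt7 livers and 6.87% ± 1.90 in the GFP livers (SD, n = 4 each), with ranges of 7.79% to 19.9% and 4.06% to 8.19%.

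The 3 complement regulators had positive fold changes with all libraries, none past the test, and 2 of 3 without Nudt7 replicate 3. C4bp, which encodes the C4b-binding protein that helps to inactivate C4b, had 275, 203, 381 and 215 CPM in Nudt7 livers, against 209, 253, 236 and 181 CPM in GFP livers (log2 fold change 0.29, SE 0.20, edgeR adjusted p = 0.707). The groups overlapped, with Nudt7 replicate 3 highest, and without that library the log2 fold change of C4bp was 0.09 (SE 0.14). Serping1, which encodes C1 inhibitor, a serpin that blocks C1r, C1s and kallikrein, was at 0.07 (SE 0.12), with 561 ± 60.6 CPM in the Nudt7 livers and 534 ± 18.9 CPM in the GFP livers (SD, n = 4 each). Cfi, the factor I protease gene, was at 0.06 (SE 0.18), and at −0.10 (SE 0.13) without Nudt7 replicate 3.

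**Figure D3:**
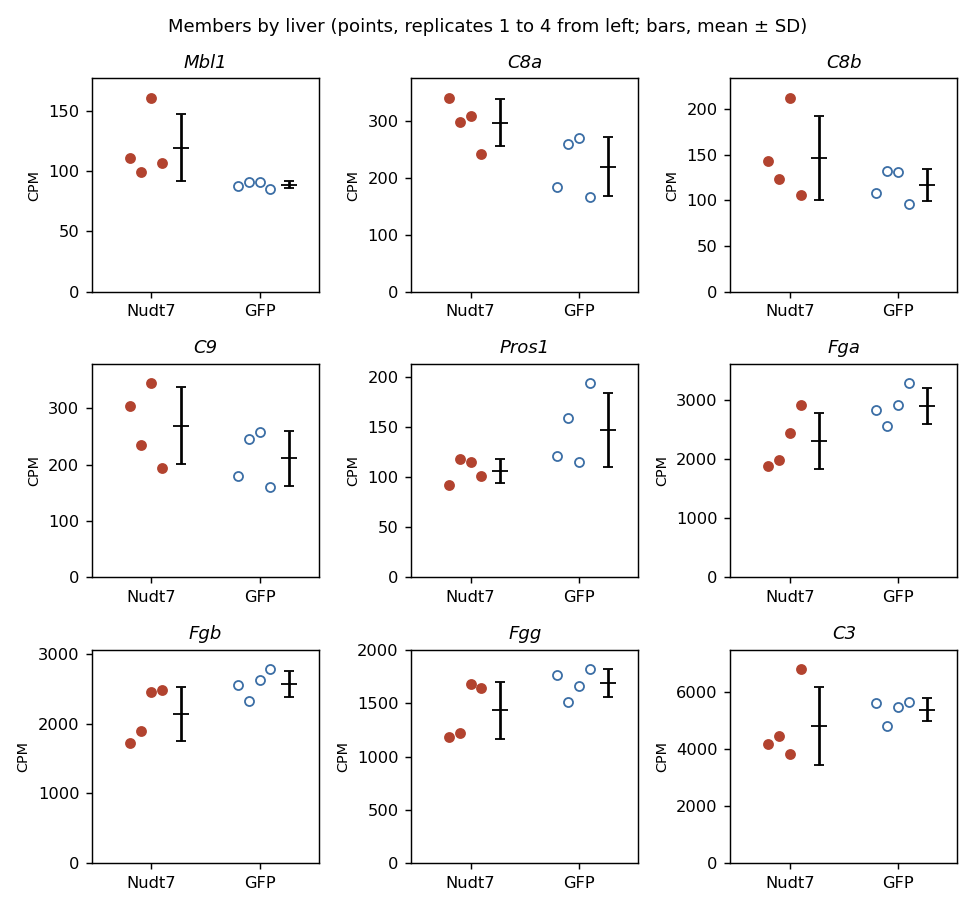
Levels by liver in CPM for 9 genes, with Nudt7 livers as filled points and GFP livers as open points (replicates 1 to 4 from left) and bars for the mean ± SD. Mbl1 is the one whose groups do not overlap, and the fibrinogen genes Fga, Fgb and Fgg are lowest in Nudt7 replicates 1 and 2.

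The fibrinogen chains, which are joined into one hexamer before secretion, were the coagulation genes with the largest negative fold changes after Pros1. Fga (chromosome 3, 83026076 to 83033627, plus strand) had 1881, 1978, 2446 and 2913 CPM in Nudt7 livers 1 to 4 and 2832, 2563, 2919 and 3282 CPM in GFP livers 1 to 4. Nudt7 replicates 1, 2 and 3 lay below every GFP liver and replicate 4 among them. The log2 fold change was −0.33 (SE 0.17, 95% interval −0.71 to 0.04, edgeR adjusted p = 0.646), and −0.46 (SE 0.17, edgeR adjusted p = 0.475) without Nudt7 replicate 4.

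Fgb (83040141 to 83049863, minus strand) had 1728, 1901, 2454 and 2490 CPM in Nudt7 livers, against 2549, 2329, 2625 and 2786 CPM in GFP livers (log2 fold change −0.26, SE 0.16, edgeR adjusted p = 0.680). Fgg (83007724 to 83015049, plus strand) had 1181, 1225, 1678 and 1646 CPM in the Nudt7 livers and 1763, 1515, 1663 and 1823 CPM in the GFP livers (−0.24, SE 0.16, edgeR adjusted p = 0.700). For both genes Nudt7 replicates 1 and 2 lay below every GFP liver, while replicates 3 and 4 lay among the GFP values. On the TPM scale, Fgb had 662, 720, 719 and 894 TPM in Nudt7 livers, against 993, 909, 1036 and 994 TPM in GFP livers, and Fgg had 954, 967, 979 and 1231 TPM against 1443, 1251, 1379 and 1370 TPM. On that scale the groups of both genes did not overlap, as for 4 of the 44 genes (9.09%; Mbl1, Fgb, Fgg and Pros1), where 5.42% of all tested genes did not overlap. In limma on log2(TPM + 1) their adjusted p values were 0.464 for Fgb and 0.482 for Fgg. The 3 fibrinogen genes were negative in each of the 19 alternatives, with log2 fold changes from −0.49 to −0.23 for Fga, −0.40 to −0.16 for Fgb and −0.40 to −0.14 for Fgg.

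The ratios of the chains varied less than their levels. The ratio of Fgg to Fgb in TPM was 1.44, 1.34, 1.36 and 1.38 in Nudt7 livers 1 to 4 and 1.45, 1.38, 1.33 and 1.38 in GFP livers 1 to 4. Its coefficient of variation over the 8 livers was 3.16%, where the level of Fgg varied by 16.9% and that of Fgb by 16.8%. Fga to Fgb was 1.71 ± 0.143 in the Nudt7 livers and 1.82 ± 0.0449 in the GFP livers (SD, n = 4 each), lowest in Nudt7 replicate 3 at 1.52. The coefficient of variation was 6.49% for Fga to Fgb and 6.67% for Fga to Fgg, where the level of Fga varied by 21.2%. For comparison, the ratio of Serpinc1 to F2, whose products are not subunits of one protein, varied by 5.73%, and the level of F2 by 7.86%. F13b, which encodes the carrier subunit of factor XIII, the enzyme that cross-links fibrin, was at 0.06 (SE 0.13).

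Fgg makes a pair of transcripts that differ at the end of the coding sequence through the use of the last intron. In human, the chain made in this way is known as gamma prime and carries a binding site for thrombin. The coding ends are shown as before, with 24 shared bases in lower case and the bases of each transcript alone, to the stop codon, in capitals.
ENSMUST00000048486.12: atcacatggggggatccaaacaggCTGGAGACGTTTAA
ENSMUST00000194175.1: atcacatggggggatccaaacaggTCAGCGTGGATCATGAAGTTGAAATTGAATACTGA
The second transcript, with 9 exons in place of 10, held 30.7%, 26.2%, 28.9% and 26.3% of Fgg TPM in Nudt7 livers 1 to 4 and 29.7%, 26.4%, 23.6% and 20.99% in GFP livers 1 to 4. The shares overlapped, with means of 28.0% ± 2.16 and 25.2% ± 3.77 (SD, n = 4 each). Fga likewise has a long transcript, which encodes the extended alpha chain and whose coding sequence goes on where the common one stops.
ENSMUST00000029630.14: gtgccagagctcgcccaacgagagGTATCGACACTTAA
ENSMUST00000166581.3: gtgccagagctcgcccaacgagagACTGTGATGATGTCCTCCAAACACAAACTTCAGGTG
The first line runs to its stop codon and the second shows the first 36 of its own bases. The long transcript held 2.90% ± 0.314 of Fga TPM in Nudt7 livers, against 2.93% ± 0.110 in GFP livers (SD, n = 4 each).

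The contact system, in which factor XII and plasma kallikrein activate each other on a surface, had a median log2 fold change of 0.04 over 6 genes, and of −0.05 without Nudt7 replicate 3. Klkb1, the plasma kallikrein gene, had 204, 139, 187 and 198 CPM in the Nudt7 livers and 174, 184, 220 and 71.9 CPM in the GFP livers. Its log2 fold change was 0.17 (SE 0.28), the widest interval among the contact genes, and GFP replicate 4 was far below the other 7 libraries. Klkb1 shared 43.2% of its words with other genes, nearly all with the joined model Gm45753. F12 was at 0.03 (SE 0.14), F11 at 0.05 (SE 0.16) and Hrg, the histidine-rich glycoprotein gene, at −0.05 (SE 0.16).

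Kng1 and Kng2, the kininogen genes from which kallikrein releases bradykinin, lie 28.4 kb apart on chromosome 16. Kng1 had 782, 766, 1519 and 1033 CPM in Nudt7 livers, against 841, 1052, 984 and 945 CPM in GFP livers (log2 fold change 0.10, SE 0.21, and −0.14, SE 0.13, without Nudt7 replicate 3). Kng2 had 94.5, 100.2, 188 and 136 CPM in the Nudt7 livers and 136, 139, 130.5 and 154 CPM in the GFP livers (−0.11, SE 0.20). For Kng2, Nudt7 replicates 1 and 2 lay below the GFP livers and replicate 3 above them, and without that library the log2 fold change was −0.33 (SE 0.13, edgeR adjusted p = 0.499). The ratio of Kng1 to Kng2 in TPM was 6.68, 6.13, 6.44 and 6.12 in Nudt7 livers, against 5.04, 6.10, 6.05 and 4.95 in GFP livers, so the groups did not overlap, by a narrow margin. For every other ratio of genes that was examined the groups overlapped. As 24.2% of the words of Kng1 occurred in Kng2 and 31.1% of those of Kng2 in Kng1, the split of reads between them is uncertain, and their sum was at 0.08 (SE 0.21, edgeR adjusted p = 0.932).

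The extrinsic and common pathway, from factor VII to thrombin, had fold changes around 0. F2, the prothrombin gene, had 913, 850, 1266 and 986 CPM in the Nudt7 livers and 972, 1033, 1004 and 996 CPM in the GFP livers (log2 fold change 0.00, SE 0.15, 95% interval −0.32 to 0.33). The GFP livers lay close together and the Nudt7 livers on both sides of them. F7 was at 0.18 (SE 0.16), F10, the factor X gene 1.5 kb from it on chromosome 8, at 0.15 (SE 0.14), and F9, the factor IX gene, at −0.09 (SE 0.13). F5, the cofactor that speeds thrombin formation, had 585, 596, 385 and 803 CPM in Nudt7 livers, against 699, 622, 677 and 623 CPM in GFP livers (−0.15, SE 0.19). Nudt7 replicate 3 was lowest and replicate 4 highest for F5, the gene with the longest transcript of the 44, and without replicate 3 its log2 fold change was 0.03 (SE 0.13).

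Among the anticoagulants, Pros1 had the largest negative fold change of the 44. Pros1 (chromosome 16, 62854307 to 62929346, plus strand) encodes protein S, the cofactor of activated protein C. It had 92.5, 118, 115 and 101 CPM in Nudt7 livers 1 to 4, against 121, 160, 115 and 194 CPM in GFP livers 1 to 4. The highest Nudt7 liver was just above the lowest GFP liver, and the spread was wider in GFP livers. The log2 fold change was −0.47 (SE 0.17, 95% interval −0.85 to −0.09, edgeR adjusted p = 0.495), and between −0.56 and −0.29 over the 19 alternatives. Protein S is also made by endothelial cells. The 12 sinusoidal endothelial markers summed to between 545 and 614 CPM in Nudt7 livers and between 611 and 678 CPM in GFP livers, with 11 of 12 fold changes negative and none of the 12 at 0; their part in the Pros1 values was not tested. Proc was at 0.09 (SE 0.15), and the ratio of Proc to Pros1 in TPM was 3.78 ± 0.693 in the Nudt7 livers and 2.76 ± 0.815 in the GFP livers (SD, n = 4 each), with overlap.

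Serpinc1 was at 0.10 (SE 0.15), with 1004, 1024, 1509 and 1160 CPM in Nudt7 livers, against 1147, 1092, 1097 and 1042 CPM in GFP livers, and Nudt7 replicate 3 alone was far above the GFP livers. Without that library Serpinc1 was at −0.03 (SE 0.11). Serpind1, which encodes heparin cofactor II, was at 0.22 (SE 0.22), with GFP replicate 4 at 41.3 CPM below the other 7 libraries at 76.4 to 98.6 CPM. The 6 vitamin K dependent genes (F2, F7, F9, F10, Proc and Pros1), whose proteins carry gamma-carboxyglutamate, had 4 positive fold changes and a median of 0.05, and 2 positive and a median of −0.04 without Nudt7 replicate 3.

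Fibrinolysis genes were likewise within the spread. Plg, the plasminogen gene, had 1244, 1194, 1525 and 1702 CPM in the Nudt7 livers and 1494, 1577, 1720 and 1468 CPM in the GFP livers (log2 fold change −0.14, SE 0.15, edgeR adjusted p = 0.797). Serpinf2, which encodes the plasmin inhibitor antiplasmin, was at −0.03 (SE 0.15). Cpb2, which encodes a carboxypeptidase that slows fibrinolysis, was at 0.26 (SE 0.20), with Nudt7 replicate 3 at 185 CPM, the other Nudt7 livers at 98.2 to 117 CPM and the GFP livers at 91.7 to 119 CPM. Without that library Cpb2 was at 0.02 (SE 0.12).

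**Figure D4:**
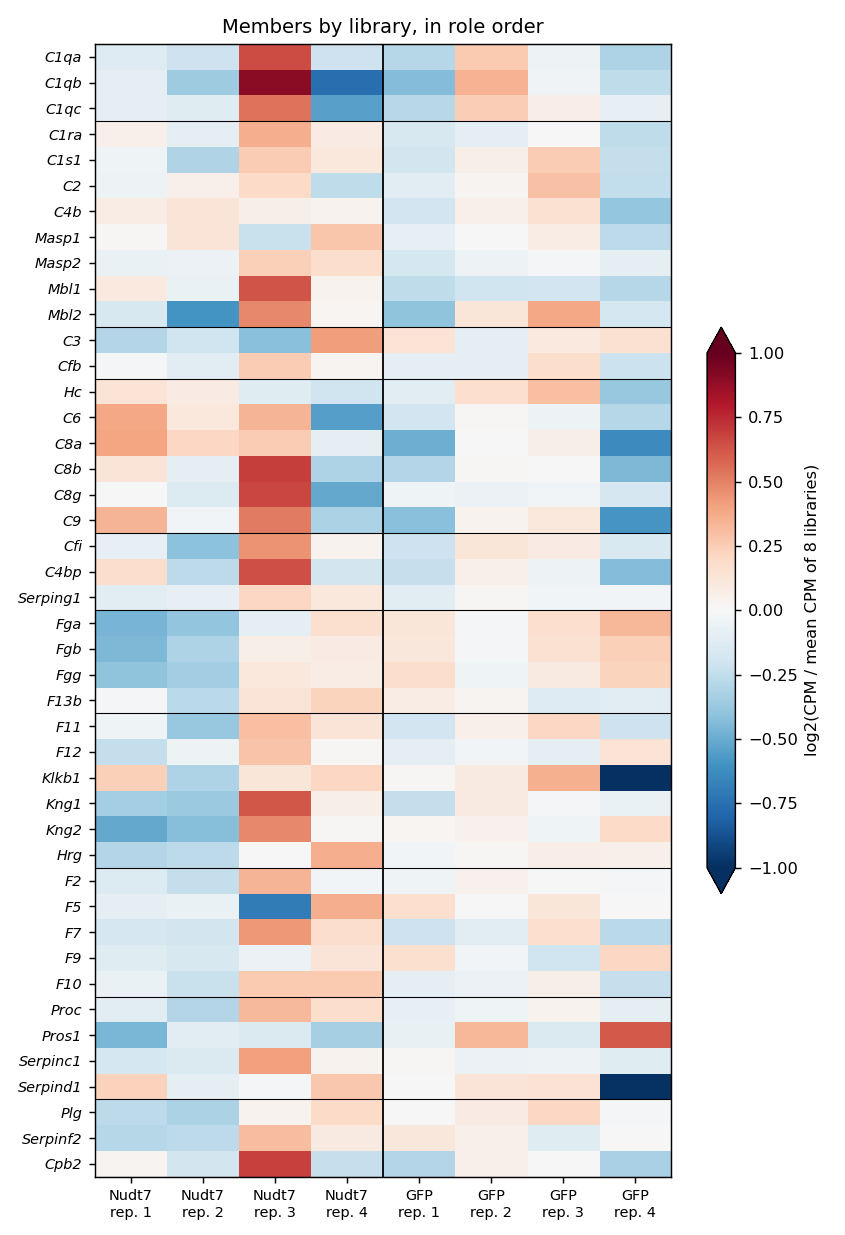
Each of the 44 genes by library, as log2 of CPM over its mean over the 8 libraries, in role order with lines between roles; Nudt7 livers are on the left and GFP livers on the right. Nudt7 replicate 3 is the highest of the 8 libraries for 25 genes, and colours end at 1 log2 unit either way.

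Across the whole set, the library with the highest value was most often Nudt7 replicate 3, for 25 of the 44 genes, and it was lowest for 2, C3 and F5. Against the mean of the other 3 Nudt7 libraries it was higher for 37 genes and lower for 7, from 1.28 log2 units for C1qb to −0.78 for F5. The signed deviation was lower for longer transcripts, with Pearson r = −0.78 and Spearman rho −0.71 across the 44 genes. The genes share the same libraries and are not independent. The 13 genes that were higher in Nudt7 replicate 3 by more than 0.5 log2 units had transcripts of at most 2230 bases. Fold changes followed length less, at r = −0.22 with all libraries and 0.23 without Nudt7 replicate 3. Without that library 11 genes turned from positive to negative and 2 from negative to positive. At an unadjusted p under 0.05 there were then 6 of the 44 (Mbl1, C8a, Pros1, Kng2, Fgb and Fgg; 13.6%, where 8.29% of all genes tested reached it), and with the length trend taken out of all libraries 4 of the 44 (Mbl1, C8a, Pros1 and Fga; 9.09%, against 9.96%). Without Nudt7 replicate 4 there were 8 (Mbl1, C8a, Pros1, Fga, C3, C6, C8b and C9; 18.2%, against 9.38%). The count was 1, Mbl1, without Nudt7 replicate 1 (2.27%, against 8%) and without GFP replicate 4 (2.27%, against 8.03%). It was 2 (4.55%) without Nudt7 replicate 2, GFP replicate 1 or GFP replicate 2, where 9.22%, 5.65% and 5.62% of all genes reached that level, and 3 without GFP replicate 3 (6.82%, against 7.21%). The edgeR test called 0 of the 44 in each of these fits, where it called 0.0933% of all genes without Nudt7 replicate 3, 0.036% without Nudt7 replicate 4 and 0.256% with the trend taken out. With the trend taken out 24 of the 44 fold changes were positive, and 19 of the 44 genes kept one direction in all 19 alternatives.

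**Figure D5:**
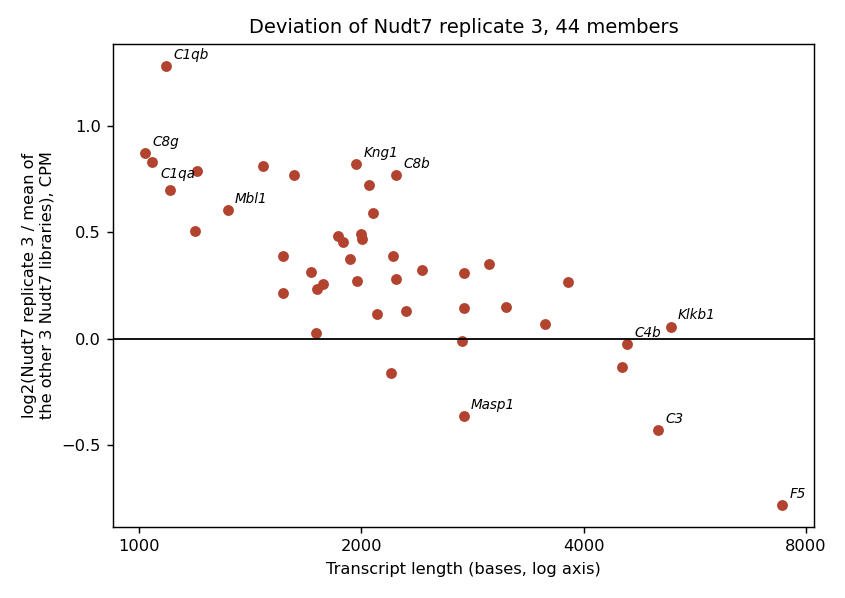
Log2 ratio of CPM in Nudt7 replicate 3 to the mean of the other 3 Nudt7 libraries (vertical) against transcript length in bases (log axis), a point for each of the 44 genes. C1qb, with a short transcript, is highest at 1.28, and F5, the longest at 7430 bases, is lowest at −0.78.

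Other genes of the same cascades gave no calls in edgeR either. Of 27 further complement genes that were tested, 16 had positive fold changes, 0 passed and 2 had an unadjusted p under 0.05. Over all tested genes 8.28% reached that level. The groups did not overlap for 1 of the 27, where 5.75% of all tested genes had groups that did not overlap. Susd4, a membrane regulator of complement, had 10.9, 11.1, 12.4 and 11.3 CPM in Nudt7 livers, against 6.51, 6.94, 9.87 and 7.17 CPM in GFP livers, so the groups did not overlap (log2 fold change 0.59, SE 0.16, edgeR adjusted p = 0.277). The next were C5ar2, a C5a receptor gene, at −0.47 (SE 0.21, edgeR adjusted p = 0.590) and Cd93 at −0.34 (SE 0.16, edgeR adjusted p = 0.619). C1s2, the copy of C1s1, had 6.40, 2.74, 4.12 and 3.06 CPM in the Nudt7 livers and 3.95, 0.146, 0.0836 and 0.0435 CPM in the GFP livers. It did not pass (edgeR adjusted p = 0.631), but was called without GFP replicate 1 (edgeR adjusted p = 0.00365), and shared words with C1s1 make its reads uncertain.

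Of 45 further coagulation and fibrinolysis genes, 25 were positive, 0 passed in edgeR and 5 had an unadjusted p under 0.05, which 8.28% of all tested genes reached. Those with the smallest p were Fgl1, a fibrinogen-like protein gene (−0.53, SE 0.19, edgeR adjusted p = 0.470), Habp2, a serine protease gene (0.43, SE 0.16, edgeR adjusted p = 0.497), and Nqo1, a quinone reductase gene (0.59, SE 0.23, edgeR adjusted p = 0.526). Acute phase genes were 12 positive of 22, with 0 called by edgeR and a median of 0.02. At an unadjusted p under 0.05 there were 3 of the 22, beside the same 8.28% of all tested genes. Beside Fgl1, Serpina3n was at −0.44 (SE 0.16, edgeR adjusted p = 0.475), and Socs3, the feedback inhibitor of STAT3 signalling, at −0.57 (SE 0.26, edgeR adjusted p = 0.593).

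The transcription factors and cytokine signalling genes that act on such liver genes were 16 negative of 23, with 0 called by edgeR and a median of −0.08. At an unadjusted p under 0.05 there were 4 of the 23, where 8.28% of all tested genes reached it. The groups did not overlap for 3 of the 23, where 5.75% of all tested genes had groups that did not overlap. DESeq2 called 1 gene of these lists, Il6ra. Il6ra, the interleukin-6 receptor gene, had 98.9, 64.5, 108 and 108 CPM in Nudt7 livers, against 149.7, 193, 156 and 149.6 CPM in GFP livers, and the groups did not overlap. Its log2 fold change was −0.77 (SE 0.17, edgeR adjusted p = 0.151), and it was called by DESeq2 (adjusted p = 0.00682) and by limma-voom with sample weights (adjusted p = 0.0264). Hnf4a, a nuclear receptor gene of hepatocyte identity, had 651, 694, 609 and 714 CPM in the Nudt7 livers and 919, 774, 844 and 1066 CPM in the GFP livers, again without overlap (−0.43, SE 0.14, edgeR adjusted p = 0.422). Osmr, the oncostatin M receptor gene, was at −0.53 (SE 0.20, edgeR adjusted p = 0.485). Of genes of other factors whose motifs were searched, Cebpa was at 0.01 (SE 0.14), Cebpb at −0.26 (SE 0.16) and Stat3 at −0.21 (SE 0.12).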

How the data were processed

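RNA was measured in livers of 4 mice given AAV-Nudt7 and 4 given AAV-GFP. Per the labels' protocols, libraries were made from 500 ng of RNA with a stranded mRNA kit and 9 cycles of PCR. FastQC, Salmon and DESeq2 on build GRCm38 are named in the submitters' processing notes, and the sources used here give no version, index or strand option. For each library the authors deposited, per the file headers, estimated counts (not normalized) and TPM of 109282 transcripts, with transcript lengths in bases.

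Transcripts were named by GENCODE M21 (107987, or 98.8%), and the 1295 not named held 0.552% to 1.06% of reads and were dropped. Gene values are sums over transcripts, with estimated counts rounded. The main test was edgeR's two-sided quasi-likelihood test with robust estimation (edgeR 4.0.16, limma 3.58.1, R 4.3.3), TMM scaling and filterByExpr, without covariates, with Benjamini-Hochberg adjustment over 13678 genes and a threshold of 0.05. CPM values use TMM-scaled sizes and serve to compare livers; TPM values serve to compare genes. Intervals are 95% intervals of the fit and include variation between livers. The smallest number of reads of any of the 44 genes in a library was 195. The procedure was tested on simulated data with known changes.

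The genes and lists were chosen with earlier results of these data known, so no p over a list is given. Values by liver are given for members at the 6 smallest unadjusted p in each direction, those with groups apart, the 8 highest by TPM, pairs with a copy, and the C1q and fibrinogen chains. Values by liver of Mbl2, Cfb, Klkb1 and F5, the ranges of Cpb2 and Serpind1, and the genes Cebpa, Cebpb and Stat3, were added after their values were seen. One gene of the transcription factor list and one motif are not reported here. Of other lists the 3 smallest p are named. Replicates were numbered in the order listed and not paired. Word sharing counts 31-base words of a gene's transcripts found in other quantified genes. Promoter windows come from RefSeq (GRCm38.p6), coding ends from GENCODE M21. Alternatives were RLE and upper-quartile scaling, DESeq2 1.42.0, limma-voom with and without sample weights, other filters, a length offset, removal of the length trend, limma on log2(TPM + 1), and leaving out each library.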

Additional observations from a re-analysis of the deposited data

Results flagged for a closer look

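The C1qa level of Nudt7 replicate 3, at 37.8 CPM, stood apart from the other 3 Nudt7 livers, which lay between 20.8 and 22.0 CPM. Its gap to the next liver was 0.931 of the group's range, above Dixon's critical value for 4 samples. This was 1 of 88 groups checked (44 genes in 2 groups), or 1.14%, where chance flags about 1 in 20. The check was run on CPM. In TPM, C1qa had 30.9, 29.3, 38.9 and 27.0 TPM in Nudt7 livers 1 to 4, and GFP replicate 2 was highest at 42.0 TPM. In CPM Nudt7 replicate 3 was also highest for C1qb and C1qc, for the summed Kupffer cell markers (555 CPM) and for red blood cell transcripts (1838 CPM). That library also had more reads from short transcripts, and the C1qa transcript has 1040 bases. With the length trend taken out of all libraries the log2 fold change of C1qa was −0.01. The part of cell markers and of transcript length in the C1qa value was not tested.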

How the results depend on the processing

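None of the 44 genes passed in edgeR or in any of the 19 alternatives, of which 8 leave out 1 library each. The sign was the same throughout for 19 genes and changed in at least 1 alternative for 25. Over all genes, 6 were called higher and 10 lower; the counts were 89 and 64 in DESeq2, 57 and 46 in limma-voom with sample weights, and 3 and 5 in limma on log2(TPM + 1). Calls of higher genes were 15 with no filter and 23 with the length trend removed, and calls of lower genes were 6 with upper-quartile scaling, 4 in limma-voom and 6 without robust estimation. Leaving out 1 library gave 1 to 8 higher and 1 to 12 lower. The median log2 fold change of the 44 was −0.0909 on log2(TPM + 1), and ran from −0.03 (without Nudt7 replicate 3) to 0.15 when 1 library was left out. Of related genes, 1 was called lower in DESeq2 and in limma-voom with sample weights (Il6ra), and 0 to 1 higher with a library left out (C1s2, without GFP replicate 1, the GFP liver with nearly all of its GFP reads). The causes were not tested. The share of the 44 genes was 2.40% in Nudt7 livers and 2.64% in GFP livers when taken over CPM, which is not scaled to length, and 1.57% and 1.79% over named genes without mitochondrial ones; leaving out 1 library gave 1.20% to 1.28% in Nudt7 livers and 1.40% to 1.47% in GFP livers. These are group means, and the shares of TPM in single livers overlapped between the groups. In estimated counts the second Fgg transcript held 25.8% in Nudt7 livers and the long Fga transcript 3.68% in Nudt7 livers and 3.74% in GFP livers. No paired analysis was possible because the labels give the mice of the 2 groups no shared numbers. The sum of C4b and C4a and a comparison of protein sequences were not run, and covariation between members is given as ratios of subunits.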
